A study of Mus musculus with 24 samples.

Results

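The comparison described here sets mouse embryonic stem cells (mESCs) that carry a hairpin against Med12 (shMed12) beside mESCs that carry the control hairpin shNMC. Its members were chosen by library title: 3 shMed12 and 3 shNMC mESC libraries, 6 of the 24 in the series, with all genes tested. Both groups are E14TG2a cells, a line derived from the blastocyst of the 129/Ola strain, grown without feeder cells in serum with LIF, the cytokine that holds mESCs in the pluripotent state. For side-by-side values, 3 shCdk8 mESC libraries, and 3 shMed12 and 3 shNMC libraries of cells kept for 24 h in 1e-06 M all-trans retinoic acid (RA) without LIF, were used as well. The fit also took in the mESC libraries labelled control and shRing1b and the RA shCdk8 libraries, which are not compared here. How many hairpin sequences or clones stand behind a target is not said in the labels, nor whether the 3 libraries of a group are separate cultures, so p-values measure only the spread between these libraries. With 1 hairpin label per target, an effect of Med12 loss and an effect of the hairpin sequence itself cannot be told apart.

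Mediator is the large complex that links transcription factors bound to DNA with RNA polymerase II. Med12, with Med13, cyclin C and Cdk8 or its paralog Cdk19, forms the kinase module that docks on Mediator reversibly, and Med12 activates the kinase. In mESCs, Mediator and cohesin occupy enhancers and promoters of active genes. Actin dynamics reach transcription through Srf and its coactivators of the Mrtf family, and tension at the cell surface through Yap and Taz, the coactivators of Tead factors that the Hippo kinases restrain.

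Poly-A RNA was read in strand-specific libraries. Reads counted in genes numbered 45211404, 41226121 and 52623256 in the shMed12 libraries and 51798987, 56544629 and 42757288 in the shNMC libraries. Reads with several alignments, which were given to no gene, made 47.4% to 48.9% of entries with shMed12 and 46.6% to 47.2% with shNMC, so genes with near-identical copies are undercounted in both groups. Libraries within a group varied beyond counting error, with a mean chi-square of 7.17 to 30.1 over genes. Levels below are CPM, the count of a gene scaled to a fixed library total, with library sizes scaled by TMM, and log2 changes, standard errors and adjusted p-values come from edgeR's quasi-likelihood test, two-sided, with Benjamini-Hochberg adjustment over all 16280 genes tested and a threshold of 0.05. A gene called higher or lower passed that threshold.

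The targeted gene was read first. Med12 stood at 35.2, 43.7 and 46.2 CPM in the shMed12 libraries, against 131, 129 and 140 CPM in the shNMC libraries. All 3 shMed12 libraries lay below all 3 shNMC libraries, and the transcript was 3.20-fold lower. Over all genes tested, the libraries of the groups lay fully apart upward in 28.5% and downward in 29.4%. Med12l, the paralog of Med12, rose to 35.4, 39.0 and 32.2 CPM with shMed12, against 8.59, 5.74 and 8.63 CPM with shNMC (log2 2.22, SE 0.22, edgeR adjusted p = 6.3e-08). Cdk19 fell to 54.6, 56.0 and 50.1 CPM with shMed12, against 74.9, 84.3 and 69.2 CPM with shNMC (log2 -0.51, SE 0.11, edgeR adjusted p = 5.6e-04). The other 4 module genes did not pass, with log2 changes of 0.06 for Cdk8, -0.16 for the cyclin gene Ccnc, -0.17 for Med13 and -0.03 for Med13l.

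Of the 16280 genes, 6594 (40.5%) were called, 3352 higher (20.6%) and 3242 lower (19.9%). Counts of list members are read against these shares. Higher calls were larger than lower calls, with a median log2 change of 1.02 against -0.62, and 1700 genes rose at least 2-fold (10.4%) while 965 fell at least 2-fold (5.93%). The split differed with level: among 3192 genes over 100 CPM, 496 were higher and 850 lower, whereas among 3473 genes at 1 to 10 CPM 984 were higher and 693 lower. The shMed12 libraries detected 17511 to 17641 genes and the shNMC libraries 17216 to 17476. Median changes of single autosomes and of chromosome X lay between -0.06 and 0.13, with chromosomes X and 14 at the upper end (0.13 and 0.11).

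**Figure D1:**
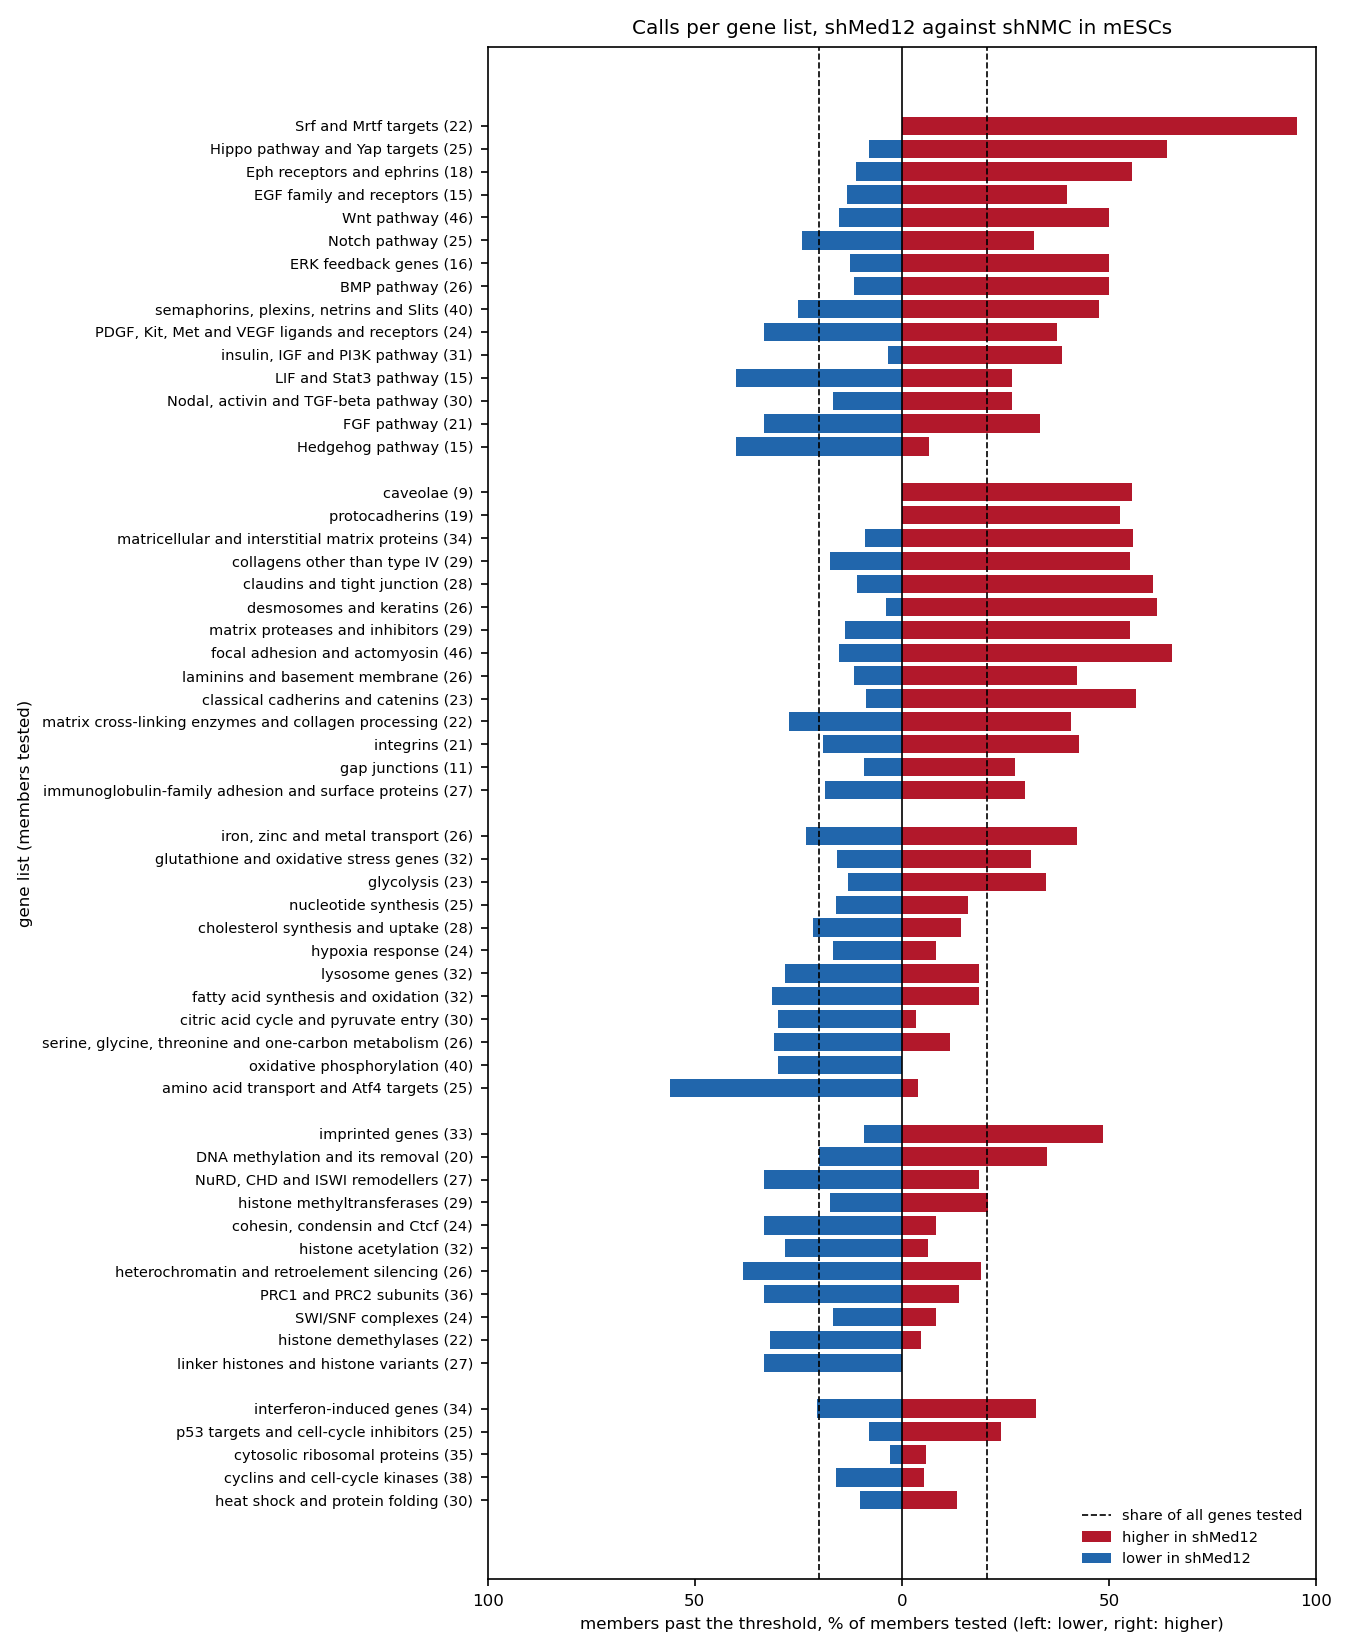
Share of the tested members of each gene list other than the cell type markers and the kinase module (rows, number tested in brackets) called higher (right, red) or lower (left, blue) in shMed12 against shNMC mESCs, in percent. Dashed lines mark the shares over all genes tested, 20.6% higher and 19.9% lower; among the lists drawn, the Srf and Mrtf list reaches furthest right and the amino acid transport and Atf4 list furthest left.

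The label of pluripotent cells was checked against markers. All 18 pluripotency markers were tested, 14 fell and 2 rose, yet their summed level was still 4443 to 4797 CPM per shMed12 library, against 7711 to 8062 CPM per shNMC library. Klf4, a naive-state transcription factor, fell to 47.0, 52.1 and 53.5 CPM with shMed12, against 186, 174 and 186 CPM with shNMC (log2 -1.84, SE 0.13, edgeR adjusted p = 2.7e-10). Prdm14, which represses differentiation genes, fell to 8.03, 8.23 and 9.16 CPM with shMed12, against 45.0, 45.0 and 43.0 CPM with shNMC (log2 -2.39, SE 0.17). Pou5f1, which encodes Oct4, held 607, 589 and 720 CPM with shMed12, against 881, 917 and 936 CPM with shNMC (log2 -0.51, SE 0.12). The groups did not overlap for these 3 genes. The 2 markers that rose were Dppa3 and Lin28a. Dppa3 had a mean of 15.5 CPM with shMed12, against 2.97 CPM with shNMC (log2 2.38, SE 0.34). Lin28a had 542 CPM with shMed12, against 366 CPM with shNMC (log2 0.57, SE 0.15). In bulk RNA, fewer cells of a type and less RNA per cell cannot be told apart.

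Markers of other cell types moved too. Of 13 trophoblast markers tested, 10 rose and 0 fell, and their summed level was 703 to 878 CPM with shMed12 and 111 to 137 CPM with shNMC. Most of the shMed12 sum came from the keratin genes Krt18, Krt8, Krt19 and Krt7. Their means were 388, 147, 54.0 and 24.0 CPM with shMed12, against 11.2, 3.75, 2.65 and 0.672 CPM with shNMC. The other members that rose were Hand1, Eomes, Gata3, Cdx2, Plac1 and Elf5. Their means were 16.9, 26.7, 6.93, 5.56, 0.527 and 0.390 CPM with shMed12. With shNMC they were 0.258, 5.81, 0.335, 0.152, 0.0151 and 0.0355 CPM. All of these but Hand1 were named after their values were seen. The 3 markers that did not pass were Tead4, Ascl2 and Tcfap2c, named after their values were seen. The placental genes Prl3d1 and Ctsq, defining products of mature trophoblast, had 1 read each over the shMed12 libraries and 0 over the shNMC libraries. Of 15 fibroblast and smooth-muscle markers 10 rose and 2 fell while the sums overlapped, at 2399 to 2530 CPM with shMed12 and 2519 to 2918 CPM with shNMC. Most of both sums came from the matrix gene Fn1, singled out after its values were seen, and without it the sums were 482 to 555 CPM with shMed12 and 107 to 133 CPM with shNMC. Fap had no read in either group, and Lum had 14 reads with shMed12 and 0 with shNMC. Of 15 extraembryonic endoderm markers 1 rose and 6 fell. Their summed level was 924 to 978 CPM with shMed12 and 586 to 696 CPM with shNMC. Most of both sums came from the matrix genes Sparc, the 1 member that rose, and Lamb1 and Col4a1, which did not pass. Their means were 419, 326 and 167 CPM with shMed12, against 195, 237 and 95.6 CPM with shNMC. Lamb1 and Col4a1 were named after their values were seen. The higher sum therefore does not describe the members that fell, among them Hnf4a (9.14-fold lower) and Cubn (25.9-fold lower). The yolk-sac gene Ttr had 0 reads with shMed12 and 43 with shNMC, at least 13.5-fold lower against a floor of 3 reads over the group. The endothelial list split 2 higher and 4 lower of 11, the macrophage list 3 and 2 of 8 and the neural list 2 and 3 of 10, with Emcn, an endothelial sialomucin, at 0 in both groups. The part of such cells in the results that follow was not tested.

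Actin genes shifted upward almost as a whole. Of 22 members of the Srf and Mrtf list, which holds targets and the factors themselves, 21 rose, 15 of them at least 2-fold, none fell, and the median log2 change was 2.14, against -0.01 over all genes tested. The remaining member, the cytoplasmic actin gene Actb, had 1718, 1597 and 1599 CPM with shMed12, against 1090, 1395 and 1054 CPM with shNMC (log2 0.47, SE 0.22, edgeR adjusted p = 0.089). A CArG box, the site that Srf binds, was searched in RefSeq promoters (build GRCm38.p6, 250 bases before to 50 after each start) as 2 C, 6 A or T and 2 G, a pattern that reads the same on both strands. It was present in 7 of the 19 list genes with a promoter in that table (36.8%), or 8 of 25 promoters (32%), against 535 of all 32851 promoters (1.63%). Among promoters of the genes tested, the share was 1.33%. Among all genes called at least 2-fold higher 1.85% of promoters held it, against 1.97% for genes at least 2-fold lower and 1.2% for genes not past the threshold. The list holds genes known as Srf targets partly from such sites, and a match is a description of these letters.

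The 5 called members with the lowest p among those with a box are shown because they carry both the rise and the motif. Each line gives 100 bases of the promoter on the strand of the gene, 5′ to 3′, with the CArG box in capitals. They lie at chr10:79988499-79988598 (plus strand, Cnn2), chr2:156775258-156775357 (plus, Myl9), chr1:43163938-43164037 (minus, Fhl2), chr14:20929148-20929247 (plus, Vcl) and chr11:120348531-120348630 (minus, Actg1).
Cnn2: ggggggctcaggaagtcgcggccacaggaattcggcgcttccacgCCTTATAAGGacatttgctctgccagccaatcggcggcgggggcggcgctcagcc
Myl9: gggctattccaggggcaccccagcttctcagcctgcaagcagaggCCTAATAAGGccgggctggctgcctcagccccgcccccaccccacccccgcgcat
Fhl2: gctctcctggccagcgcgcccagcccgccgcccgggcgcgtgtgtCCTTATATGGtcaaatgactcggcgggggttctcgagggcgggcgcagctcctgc
Vcl: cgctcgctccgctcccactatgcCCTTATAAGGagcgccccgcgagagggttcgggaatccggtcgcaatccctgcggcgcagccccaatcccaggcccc
Actg1: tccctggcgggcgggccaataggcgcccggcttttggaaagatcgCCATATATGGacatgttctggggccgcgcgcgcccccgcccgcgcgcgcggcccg
The box began 56 bases before the annotated start in Cnn2, 161 in Myl9, 31 in Fhl2, 227 in Vcl and 90 in Actg1. The letters were identical in Cnn2 and Vcl.

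Cnn2, which encodes a calponin that binds actin filaments, stood at 218, 193 and 201 CPM with shMed12, against 32.3, 34.7 and 37.2 CPM with shNMC (log2 2.56, SE 0.11, edgeR adjusted p = 7.2e-13). Myl9, a regulatory light chain of non-muscle and smooth-muscle myosin, stood at 17.9, 14.4 and 17.6 CPM with shMed12, against 0.457, 0.669 and 0.639 CPM with shNMC (log2 4.82, SE 0.32). Neither gene had overlapping groups. Tpm1, a tropomyosin that coats actin filaments, had the lowest p of the list, with 843, 793 and 653 CPM in shMed12 libraries and 98.5, 101 and 99.2 CPM in shNMC libraries (log2 2.94, SE 0.11, edgeR adjusted p = 1.1e-13). Cald1, whose product caldesmon restrains actomyosin ATPase, had 486, 486 and 406 CPM with shMed12, against 58.4, 40.8 and 59.3 CPM with shNMC. The transgelin gene Tagln had 303, 264 and 251 CPM with shMed12, against 2.33, 1.59 and 2.38 CPM with shNMC. In all of these the lowest shMed12 library was several times the highest shNMC library.

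The other genes shown with a box ranged widely. Fhl2, a LIM-domain cofactor of Srf, was 24.8-fold higher, and Vcl, which encodes the focal adhesion protein vinculin, 1.47-fold higher (log2 0.56, SE 0.06). Actg1, a cytoplasmic actin gene with many processed pseudogenes, was read at only 15.8, 14.9 and 12.8 CPM with shMed12, against 3.78, 6.88 and 4.28 CPM with shNMC, and its level and change are uncertain. The list also holds the factors themselves. Srf rose by log2 0.54 (SE 0.12), Mkl1, which encodes Mrtf-A, by 0.29 (SE 0.10) and Mkl2, which encodes Mrtf-B, by 0.25 (SE 0.08). Actb, Fhl2, Vcl, Actg1, Srf, Mkl1 and Mkl2 lie outside the rule for named genes and were named after their values were seen.

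**Figure D2:**
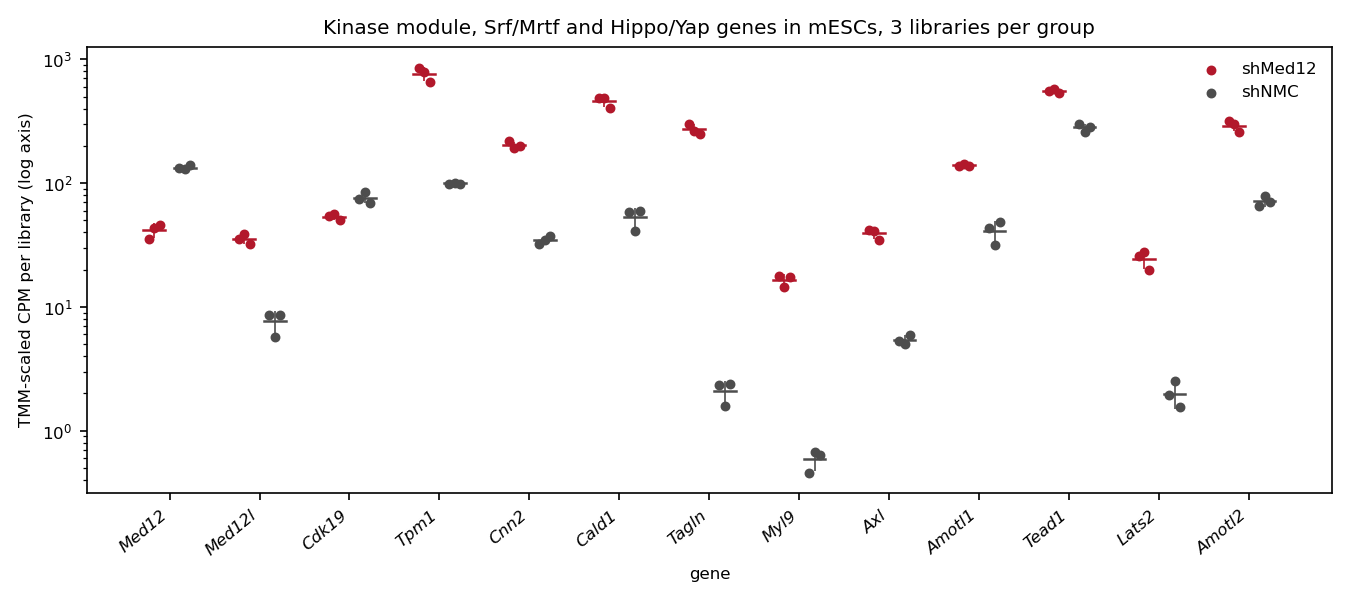
TMM-scaled CPM per library (log axis) for 13 genes in mESCs, shMed12 left of shNMC for each gene. Points are the 3 libraries of a group, horizontal bars the mean and vertical bars 1 SD. Med12 and Cdk19 lie lower in shMed12 libraries and the other 11 genes higher, with no overlap of the groups for any of them.

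Genes of the Hippo pathway and its readouts rose as well. Of 25 members, 16 were higher, 12 of them at least 2-fold, and 2 were lower, with a median log2 change of 0.99. The Tead site GGAATG, searched on both strands (GGAATG or CATTCC), stood in the promoters of 13 of 19 list genes found in the RefSeq table (68.4%), or 15 of 24 promoters (62.5%), against 4817 of 32851 promoters in all (14.7%). Among promoters of the genes tested, the share was 12.6%. Among all genes called at least 2-fold higher, 16.9% of promoters held it, against 13.8% for genes at least 2-fold lower and 11.9% for genes not past the threshold. As in the Srf list, some of these genes are known as targets partly from such sites, and a match is a description of these letters. The 5 called members with the lowest p among those with a site are shown on the strand of the gene, 5′ to 3′, 100 bases each with the site in capitals. They lie at chr7:25788884-25788983 (minus strand, Axl), chr14:57746074-57746173 (minus, Lats2), chr9:102717692-102717791 (plus, Amotl2), chr6:114969233-114969332 (minus, Vgll4) and chr1:189728075-189728174 (plus, Ptpn14) of GRCm38.p6.
Axl: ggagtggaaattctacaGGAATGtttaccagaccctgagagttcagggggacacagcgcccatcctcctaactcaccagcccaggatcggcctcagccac
Lats2: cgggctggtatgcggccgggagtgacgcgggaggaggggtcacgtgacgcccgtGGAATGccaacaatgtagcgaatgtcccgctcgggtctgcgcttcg
Amotl2: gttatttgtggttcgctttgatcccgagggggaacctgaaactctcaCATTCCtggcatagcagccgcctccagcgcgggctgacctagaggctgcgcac
Vgll4: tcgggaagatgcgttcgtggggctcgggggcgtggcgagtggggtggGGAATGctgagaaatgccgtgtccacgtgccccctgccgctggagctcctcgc
Ptpn14: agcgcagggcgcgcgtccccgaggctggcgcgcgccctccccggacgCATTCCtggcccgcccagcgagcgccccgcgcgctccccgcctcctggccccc
The site lay 233 bases before the annotated start in Axl, 65 in Amotl2, 82 in Vgll4 and 146 in Ptpn14, and within the transcript in Lats2. The letters read GGAATG in 3 of these genes and CATTCC, the same site on the other strand, in Amotl2 and Ptpn14.

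Several of these genes encode brakes on Yap. Lats2, a kinase that phosphorylates Yap, stood at 25.6, 27.5 and 19.9 CPM with shMed12, against 1.93, 2.52 and 1.55 CPM with shNMC (log2 3.60, SE 0.34, edgeR adjusted p = 2.3e-08). Amotl2, an angiomotin that can hold Yap at junctions, stood at 315, 298 and 259 CPM with shMed12, against 64.8, 79.3 and 70.4 CPM with shNMC (log2 2.02, SE 0.21). Its relative Amotl1 stood at 136, 142 and 139 CPM with shMed12, against 43.5, 31.8 and 48.2 CPM with shNMC (log2 1.75, SE 0.16). The receptor tyrosine kinase Axl, a known Yap target, was 7.24-fold higher at 42.2, 41.1 and 34.8 CPM with shMed12, against 5.31, 5.04 and 5.97 CPM with shNMC. Tead1, one of the DNA-binding partners of Yap, had 557, 579 and 538 CPM with shMed12, against 299, 260 and 286 CPM with shNMC (log2 0.99, SE 0.09). None of the 5 genes had overlapping groups. Ptpn14, a phosphatase that binds Yap, and Vgll4, which competes with Yap for Tead factors, were printed for their sites and were named after their values were seen. Ptpn14 had 249, 253 and 251 CPM with shMed12, against 31.3, 26.1 and 34.8 CPM with shNMC (log2 3.03, SE 0.33), and Vgll4 was 3.41-fold higher.

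The best-known Yap targets, named after their values were seen, rose with a wider spread. Cyr61, a secreted matrix-associated protein, had 201, 185 and 118 CPM with shMed12, against 7.10, 10.9 and 7.54 CPM with shNMC (log2 4.30, SE 0.53, edgeR adjusted p = 9.6e-07). Ctgf, of the same family, had 148, 147 and 104 CPM with shMed12, against 27.4, 50.7 and 25.6 CPM with shNMC (log2 1.94, SE 0.36). Library 3 was the lowest of the shMed12 group in both. The 2 members that fell act upstream: Nf2, which encodes merlin, fell by 0.79 on the log2 scale (SE 0.12), and Stk3, the kinase Mst2, by 0.43 (SE 0.09).

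Genes of the Wnt and BMP pathways rose in larger numbers than they fell. In the Wnt list 23 of 46 members were higher and 7 lower. The ligand gene Wnt7b had 33.6, 29.0 and 32.0 CPM with shMed12, against 1.49, 1.003 and 1.84 CPM with shNMC (log2 4.45, SE 0.29, edgeR adjusted p = 1.1e-10), and the ligand genes Wnt4 and Wnt7a were 34.4-fold and 43.1-fold higher. Receptor genes went both ways: Fzd2 had 21.3, 19.6 and 21.1 CPM with shMed12, against 3.92, 5.45 and 4.62 CPM with shNMC, while Fzd5 had 72.4, 74.3 and 88.7 CPM with shMed12, against 226, 225 and 225 CPM with shNMC (log2 -1.52, SE 0.11). None of these groups overlapped.

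The BMP list had 13 of 26 members higher and 3 lower. Bmp8b, a ligand, stood at 20.4, 20.2 and 16.3 CPM with shMed12, against 2.10, 2.05 and 2.19 CPM with shNMC (log2 3.17, SE 0.15, edgeR adjusted p = 2.5e-12), and the antagonist Nog and the target gene Msx2 were 6.91-fold and 3.62-fold higher. In the Nodal, activin and TGF-beta list 8 of 30 were higher and 5 lower, shares closer to the background. Its members with the lowest p pointed apart. Tgfb2, a TGF-beta ligand, had 17.8, 16.4 and 14.5 CPM with shMed12, against 0.623, 0.747 and 0.688 CPM with shNMC (log2 4.56, SE 0.27). Inhbb, a subunit of activin B and inhibin B, had 2.31, 2.05 and 4.43 CPM with shMed12, against 77.5, 71.7 and 77.3 CPM with shNMC (log2 -4.67, SE 0.32).

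FGF genes moved in both directions. The receptor genes Fgfr1 and Fgfr2 rose, Fgfr2 to 65.2, 64.6 and 62.0 CPM with shMed12, against 10.8, 11.1 and 8.63 CPM with shNMC (log2 2.65, SE 0.33, edgeR adjusted p = 1.3e-06). Fgf4, the main autocrine FGF of mESCs, fell to 216, 212 and 239 CPM with shMed12, against 425, 440 and 431 CPM with shNMC, and Fgf5, a gene of the primed epiblast, rose to 5.77, 5.41 and 2.86 CPM with shMed12, against 0.353, 0.610 and 0.442 CPM with shNMC. Counts in the FGF list were even, 7 higher and 7 lower of 21. Of 16 feedback genes of the ERK pathway 8 rose and 2 fell. The ERK phosphatase gene Dusp6 had 157, 163 and 137 CPM with shMed12, against 67.0, 70.9 and 65.9 CPM with shNMC (log2 1.16, SE 0.13), and Dusp4 was 4.82-fold higher. Among growth factor receptors Erbb3 was 3.62-fold and Egfr 2.78-fold higher, whereas Kit, the receptor of stem cell factor, had 41.8, 46.7 and 38.0 CPM with shMed12, against 162, 157 and 158 CPM with shNMC (log2 -1.91, SE 0.11).

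The LIF pathway, which the medium feeds, had 4 of 15 members higher and 6 lower. Both Stat3, its transcription factor, and Lifr, its receptor, were about as far down. Stat3 had 81.7, 88.4 and 98.2 CPM with shMed12, against 178, 176 and 180 CPM with shNMC (log2 -0.99, SE 0.08, edgeR adjusted p = 3.2e-09), and Lifr 92.6, 90.8 and 96.4 CPM with shMed12, against 202, 186 and 188 CPM with shNMC (log2 -1.04, SE 0.10). The ligand gene Lif itself was 2.61-fold higher and the kinase gene Jak2 1.99-fold higher. Hedgehog genes leaned down, with 6 of 15 lower and 1 higher, a median log2 change of -0.64. Gli2, an effector, had 50.0, 50.5 and 67.8 CPM with shMed12, against 135, 147 and 143 CPM with shNMC, and Gli3, mainly a repressor, was the 1 member called higher, at 75.5, 72.1 and 56.0 CPM with shMed12, against 24.9, 24.7 and 23.7 CPM with shNMC. The insulin, IGF and PI3K list had 12 of 31 higher and 1 lower, led by Igf2, Irs2 and 3 genes of IGF-binding proteins. Notch genes went 8 higher and 6 lower of 25.

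Guidance molecules of the nervous system, which also act in other tissues, changed in large numbers. Of 40 semaphorin, plexin, netrin and Slit genes 19 rose and 10 fell, and of 18 Eph and ephrin genes 10 rose and 2 fell. The netrin receptor gene Unc5b had 117, 118 and 113 CPM with shMed12, against 25.5, 26.9 and 30.2 CPM with shNMC (log2 2.07, SE 0.12, edgeR adjusted p = 2.7e-11). Sema5b, a transmembrane semaphorin, went the other way at 1.29, 1.21 and 1.67 CPM with shMed12, against 14.8, 12.8 and 15.9 CPM with shNMC (log2 -3.37, SE 0.31). Epha1 was 7.64-fold higher and Epha4 2.11-fold lower, each without overlap.

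Adhesion genes were mostly higher. Of 46 focal adhesion and actomyosin genes, 30 were higher and 7 lower, and their summed level was 12150 to 12540 CPM with shMed12 and 7820 to 8221 CPM with shNMC. The LIM protein gene Csrp1 had 229, 201 and 203 CPM with shMed12, against 52.4, 50.2 and 57.4 CPM with shNMC (log2 1.98, SE 0.10, edgeR adjusted p = 7.2e-12). The filamin gene Flna, which cross-links actin, had 1206, 1291 and 1460 CPM with shMed12, against 631, 702 and 668 CPM with shNMC. This list shares members with the Srf list. Among 21 integrins 9 rose and 4 fell. Itga3, a laminin receptor subunit, had 230, 213 and 242 CPM with shMed12, against 33.2, 29.8 and 41.2 CPM with shNMC (log2 2.72, SE 0.15), and Itgb1, the common beta subunit, 703, 703 and 606 CPM with shMed12, against 344, 368 and 322 CPM with shNMC (log2 0.96, SE 0.10).

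The matrix lists moved mostly up. Of 29 collagen genes outside type IV 16 rose and 5 fell, of 34 matricellular and interstitial genes 19 rose and 3 fell, and of 29 matrix proteases and inhibitors 16 rose and 4 fell. Col12a1, a fibril-associated collagen, had 7.96, 7.98 and 7.94 CPM with shMed12, against 0.374, 0.531 and 0.565 CPM with shNMC (log2 4.02, SE 0.34, edgeR adjusted p = 3.9e-09). Thbs1, which encodes thrombospondin, had 307, 298 and 253 CPM with shMed12, against 3.16, 3.07 and 2.83 CPM with shNMC (log2 6.56, SE 0.54), and the lysyl oxidase Loxl4 was 45.0-fold higher. Loxl4 cross-links collagen and elastin. In the basement membrane list 11 of 26 rose and 3 fell, and Nid1, the nidogen that bridges laminin and collagen IV, was among the falls at 211, 219 and 233 CPM with shMed12, against 576, 614 and 560 CPM with shNMC (log2 -1.40, SE 0.12). The fibroblast markers above share collagen and smooth-muscle genes with these lists. Pdgfra, a marker of mesenchymal cells, fell to 1.92, 2.08 and 1.57 CPM with shMed12, against 9.18, 10.5 and 8.13 CPM with shNMC. It is also among the 6 extraembryonic endoderm markers that fell.

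Each of the 3 lists of cell-cell junctions held more rises than falls. Of 28 claudin and tight junction genes 17 were higher and 3 lower, of 26 desmosome and keratin genes 16 were higher and 1 lower, and of 23 classical cadherin and catenin genes 13 were higher and 2 lower. Cldn6 had 188, 168 and 153 CPM with shMed12, against 19.7, 21.1 and 22.6 CPM with shNMC (log2 3.01, SE 0.22, edgeR adjusted p = 6.6e-10), and cingulin, encoded by Cgn, 123, 126 and 124 CPM with shMed12, against 30.6, 30.2 and 34.4 CPM with shNMC. Desmoplakin, encoded by Dsp, had 193, 194 and 156 CPM with shMed12, against 66.9, 61.3 and 73.3 CPM with shNMC (log2 1.43, SE 0.11). Krt18, Krt19 and Krt7, keratins of simple epithelia, were 34.6-fold, 20.5-fold and 35.9-fold higher. These 3 genes are also among the trophoblast markers. With Krt8 they made up most of that list's summed level with shMed12 (703 to 878 CPM, against 111 to 137 CPM with shNMC). The rise of that sum is therefore no separate observation. Trophoblast markers outside the keratins, such as Hand1 and Eomes, rose too, and the part of trophoblast cells was not tested. Of 19 protocadherins 10 rose and 0 fell. Pcdh7 had 270 reads over the shMed12 libraries and 0 over the shNMC libraries, at least 95.3-fold higher against a floor of 3 reads over the group. Pcdh18 had 4.38, 4.33 and 2.64 CPM with shMed12, against 0.083, 0.157 and 0.0737 CPM with shNMC. Caveolin genes were near silent in shNMC cells: Cav2 had 4.41, 3.59 and 2.84 CPM with shMed12, against 0.0623, 0.0590 and 0.123 CPM with shNMC (log2 5.46, SE 0.45). Ncam1, a neural adhesion molecule, fell to 11.2, 11.2 and 13.4 CPM with shMed12, against 55.5, 59.1 and 53.4 CPM with shNMC.

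**Figure D3:**
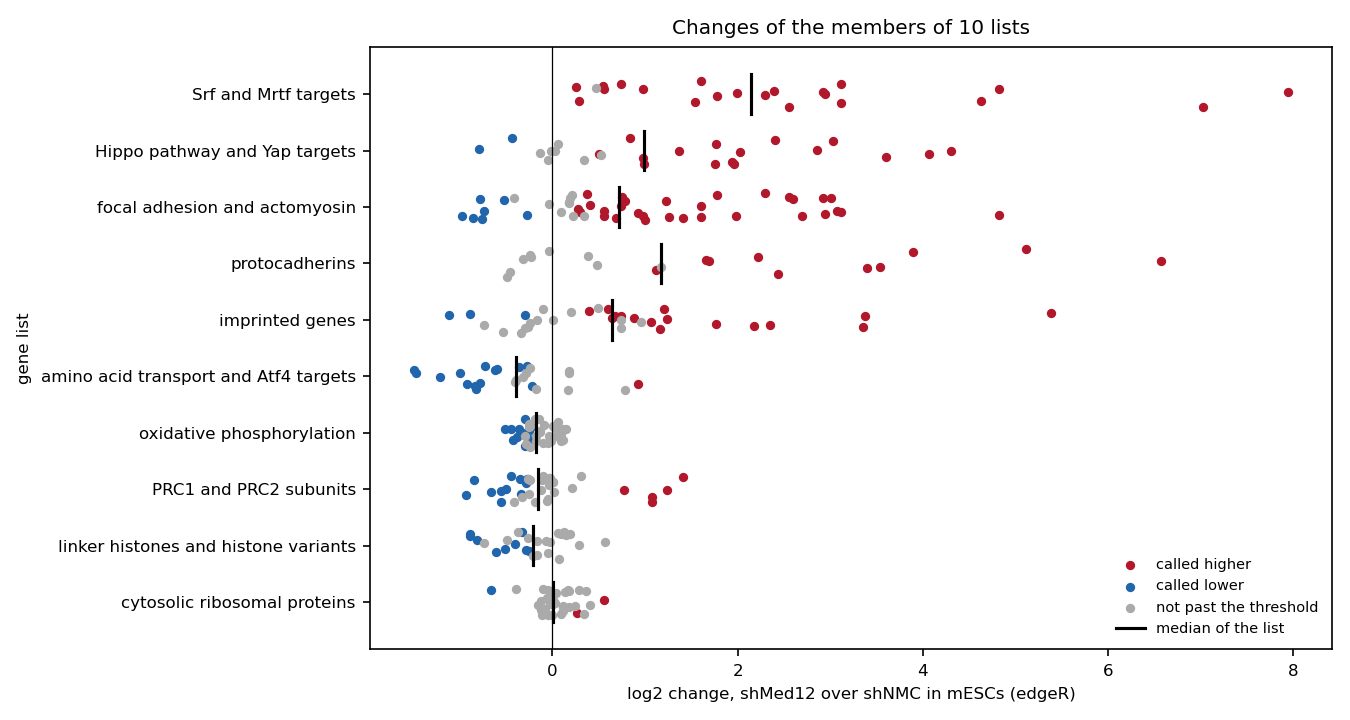
Log2 change of each tested member, shMed12 over shNMC in mESCs (x axis), for 10 gene lists (rows); black bars are list medians. Members of the Srf and Mrtf list lie to the right of 0, ribosomal protein genes lie around 0, and 3 protocadherins with no shNMC read are drawn at their lower bound.

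The lists of mitochondrial energy metabolism held more falls than rises. Of 40 oxidative phosphorylation genes 0 rose and 12 fell, with a median log2 change of -0.18, and of 30 citric acid cycle genes 1 rose and 9 fell. The shares called, 30% and 33.3%, lay below the 40.5% over all genes, and the falls were small. Both lists hold highly read genes, with sums of 8396 to 8760 and 5499 to 5652 CPM per shMed12 library. Among all 3192 genes over 100 CPM falls also outnumbered rises, with 850 lower and 496 higher. No direction is read from either list. Ndufv1, a subunit of complex I, had 141, 139 and 170 CPM with shMed12, against 203, 208 and 230 CPM with shNMC (log2 -0.51, SE 0.10, edgeR adjusted p = 2.0e-04), and Sdhb, a subunit shared by complex II and the citric acid cycle, 98.0, 92.8 and 107 CPM with shMed12, against 147, 141 and 160 CPM with shNMC (log2 -0.59, SE 0.08). No member of either list fell 2-fold.

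Amino acid transport and Atf4 target genes, which Atf4 induces when amino acids are short, had 14 of 25 lower and 1 higher, 60% called, and a median log2 change of -0.39. Slc1a5, a glutamine transporter, had 84.8, 80.8 and 102 CPM with shMed12, against 169, 155 and 183 CPM with shNMC (log2 -0.92, SE 0.14, edgeR adjusted p = 1.8e-05). Nupr1, a stress-induced nuclear protein, had 30.8, 28.1 and 41.3 CPM with shMed12, against 98.1, 82.1 and 102 CPM with shNMC (log2 -1.49, SE 0.23). Library 3 was the highest of the shMed12 libraries in both and still below every shNMC library. In the serine, glycine, threonine and one-carbon list 8 of 26 fell and 3 rose. Psph, the last enzyme of serine synthesis, had 64.1, 60.6 and 75.6 CPM with shMed12, against 157, 149 and 168 CPM with shNMC (log2 -1.24, SE 0.16), and the mitochondrial serine hydroxymethyltransferase Shmt2 was 1.85-fold lower.

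Glycolysis counted 8 of 23 higher and 3 lower. Slc2a3, a high-affinity glucose transporter, had one of the 10 largest rises in CPM, at 3689, 3754 and 2927 CPM with shMed12, against 1639, 1727 and 1536 CPM with shNMC (log2 1.08, SE 0.11, edgeR adjusted p = 1.2e-07). Txnip, which restrains glucose uptake, fell to 167, 169 and 292 CPM with shMed12, against 1406, 623 and 1597 CPM with shNMC, with a wide spread in the control (log2 -2.53, SE 0.41). The muscle-type enolase gene Eno3 was 5.12-fold higher, and of the phosphofructokinase genes Pfkm was 1.51-fold higher and Pfkp 2.13-fold lower. The ubiquitous enolase gene Eno1, which has near-identical copies in the genome, had 1 read with shMed12 and 0 with shNMC and is not measured by these counts. The hypoxia list had 2 higher and 4 lower of 24, 25% in all.

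Lipid and metal genes moved in both directions. In the fatty acid list 6 of 32 rose and 10 fell. Plin2, which coats lipid droplets, had 113, 108 and 92.3 CPM with shMed12, against 20.3, 22.6 and 24.5 CPM with shNMC (log2 2.22, SE 0.15, edgeR adjusted p = 2.2e-10), and Acly, which makes cytosolic acetyl-CoA, 378, 402 and 474 CPM with shMed12, against 696, 724 and 696 CPM with shNMC (log2 -0.75, SE 0.12). Cholesterol synthesis split 4 higher and 6 lower of 28. Of 26 iron, zinc and metal genes 11 rose and 6 fell. The iron exporter ferroportin, encoded by Slc40a1, had 93.0, 96.9 and 73.7 CPM with shMed12, against 4.88, 4.07 and 4.45 CPM with shNMC (log2 4.30, SE 0.23, edgeR adjusted p = 8.4e-12). Slc11a1, a divalent metal transporter best known from phagosomes, had 0.854, 0.385 and 1.21 CPM with shMed12, against 36.9, 24.4 and 40.3 CPM with shNMC (log2 -5.34, SE 0.44). It ranked first among the falls by log2 at 5 CPM or more, while the macrophage markers Emr1, Tyrobp, Ptprc and Lyz2 had at most 11 reads in either group. Of the 8 macrophage and blood cell markers tested, 3 rose and 2 fell. The 3 that rose, Csf1r, Aif1 and Cd14, had low means of 0.772, 0.287 and 0.462 CPM with shMed12. With shNMC they had 0.0963, 0.0299 and 0.239 CPM (log2 2.92, 3.18 and 0.95), and Cd14 did not pass under several alternatives. Itgam, an integrin subunit of myeloid cells, fell to 0.900, 1.08 and 1.43 CPM with shMed12, against 3.86, 3.80 and 4.30 CPM with shNMC (log2 -1.80, SE 0.25, edgeR adjusted p = 4.5e-06). Laptm5, a lysosomal protein of blood cells, fell to 71.1, 67.8 and 87.6 CPM with shMed12, against 113, 114 and 126 CPM with shNMC (edgeR adjusted p = 0.011, and 0.063 without shMed12 replicate 2). The part of macrophages or other blood cells in the fall of Slc11a1 was not tested.

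The Polycomb, histone variant and histone demethylase lists held more falls than rises. Falls also outnumbered rises among all genes over 100 CPM, with 850 lower and 496 higher. Of 36 subunits of the Polycomb complexes PRC1 and PRC2 5 rose and 12 fell, with a median log2 change of -0.15, but of the 5 members with the lowest p 4 were rises. Pcgf5, a subunit of a variant PRC1, had 42.6, 39.6 and 32.0 CPM with shMed12, against 15.1, 14.3 and 13.6 CPM with shNMC (log2 1.41, SE 0.15, edgeR adjusted p = 1.7e-07), and Phc2 was 2.10-fold higher. Phc1, the polyhomeotic paralog typical of mESCs, fell to 511, 497 and 608 CPM with shMed12, against 951, 918 and 1026 CPM with shNMC (log2 -0.84, SE 0.16). Of 27 linker histone and histone variant genes 0 rose and 9 fell (33.3% called), and of 22 histone demethylases 1 rose and 7 fell (36.4% called). Kdm5b, which removes methyl groups from lysine 4 of histone H3, had 502, 541 and 572 CPM with shMed12, against 1092, 1103 and 1065 CPM with shNMC (log2 -1.01, SE 0.07, edgeR adjusted p = 5.2e-10). Of 24 SWI/SNF genes 2 rose and 4 fell, 25% in all. The shares of the histone variant, demethylase and SWI/SNF lists lay below the 40.5% called over all genes. No direction is read from these lists.

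DNA methylation genes moved both ways. Tet1 and Tet2, which oxidise methylated cytosine, fell, Tet2 to 113, 121 and 136 CPM with shMed12, against 446, 463 and 436 CPM with shNMC (log2 -1.86, SE 0.10, edgeR adjusted p = 8.4e-12). The de novo methyltransferase gene Dnmt3b rose to 527, 541 and 549 CPM with shMed12, against 196, 245 and 188 CPM with shNMC (log2 1.36, SE 0.14). Over the whole list 7 of 20 rose and 4 fell. Of 24 cohesin, condensin and Ctcf genes 2 rose and 8 fell, 41.7% called, close to the 40.5% over all genes. The median log2 change was -0.12. The only 3 members at least 2-fold lower were the cohesin subunits Smc1b and Stag3, 6.19-fold and 3.43-fold, and Ctcfl, the paralog of Ctcf, 3.27-fold. Of 26 genes of heterochromatin and retroelement silencing 5 rose and 10 fell, and Piwil4, a Piwi protein, was 14.2-fold lower. Smc1b had 8.68, 9.11 and 10.5 CPM with shMed12, against 65.2, 45.7 and 64.3 CPM with shNMC.

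Of 33 imprinted genes 16 rose and 3 fell, with a median log2 change of 0.64. Peg10, a retrotransposon-derived gene needed in the placenta, had 3208, 3375 and 2516 CPM with shMed12, against 307, 311 and 272 CPM with shNMC (log2 3.36, SE 0.32, edgeR adjusted p = 3.0e-08), and ranked first among the rises in CPM. Its imprinted neighbour Sgce was 5.10-fold higher. Igf2, a fetal growth factor, had 134, 132 and 118 CPM with shMed12, against 2.82, 3.56 and 2.78 CPM with shNMC (log2 5.38, SE 0.50). Counts per gene do not show from which allele the reads came.

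**Figure D4:**
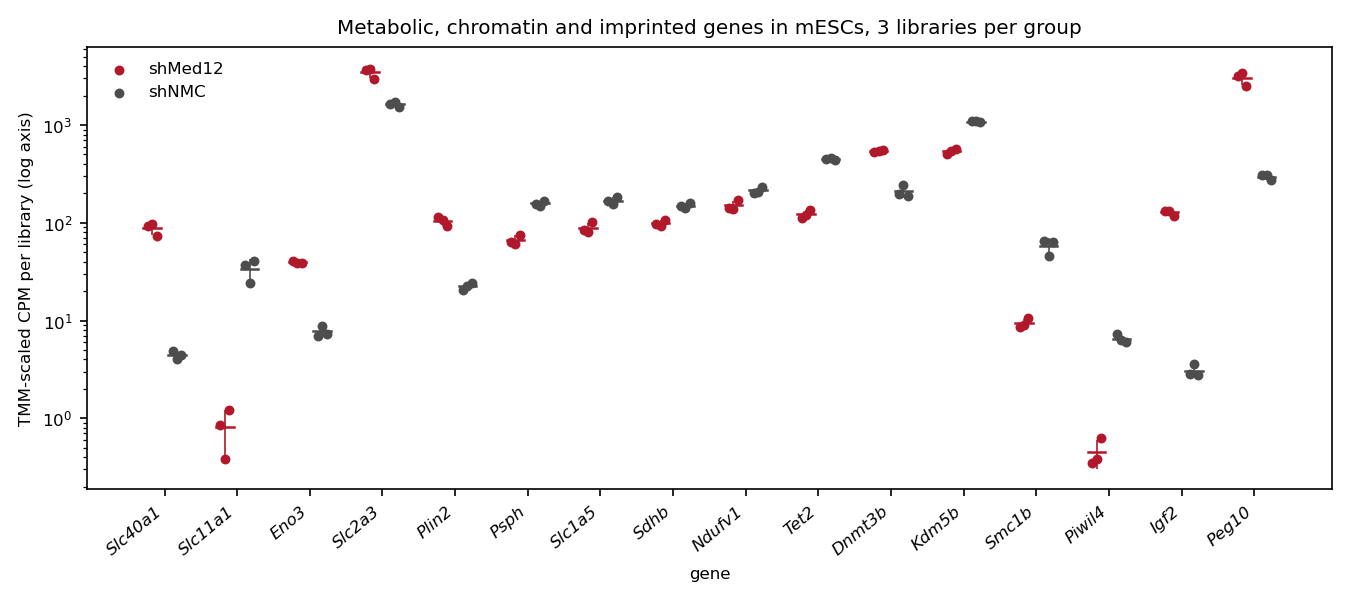
TMM-scaled CPM per library (log axis) for 16 metabolic, chromatin and imprinted genes in mESCs, shMed12 left of shNMC. Points are the 3 libraries, horizontal bars the mean and vertical bars 1 SD; Slc40a1, Eno3, Slc2a3, Plin2, Dnmt3b, Igf2 and Peg10 lie higher in shMed12 libraries and the other 9 genes lower.

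The rule for named genes also took the 10 largest rises and the 10 largest falls in CPM. Cul4b, a scaffold of cullin-RING ligases on chromosome X, had 1276, 1310 and 1119 CPM with shMed12, against 620, 647 and 565 CPM with shNMC (log2 1.02, SE 0.12, edgeR adjusted p = 4.0e-07), and its adaptor Ddb1 had 2314, 2270 and 2356 CPM with shMed12, against 1652, 1692 and 1656 CPM with shNMC. Klhl13, a substrate adaptor of Cul3, had 661, 703 and 572 CPM with shMed12, against 101, 126 and 92.5 CPM with shNMC, and Rlim, the ligase that promotes expression of Xist, was 2.66-fold higher. Trip12, another ligase, fell to 1289, 1374 and 1461 CPM with shMed12, against 1945, 1859 and 1767 CPM with shNMC. The groups overlapped for none of them.

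Ribosomal protein, cell-cycle and heat shock lists held smaller shares of calls than all genes tested. Of 35 cytosolic ribosomal protein genes 2 rose and 1 fell, of 38 cyclins and cell-cycle kinases 2 rose and 6 fell, and of 30 heat shock and folding genes 4 rose and 3 fell, which is 8.57%, 21.1% and 23.3% called, against 40.5% over all genes. Several ribosomal protein genes were barely read, with means for shMed12 and shNMC of 0.212 and 0.279 CPM for Rps23 and 0.518 and 0.437 CPM for Rpl30. Rpl4 had 3121 and 3120 CPM, and these 3 genes were named after their values were seen. Reads with several alignments were given to no gene, so the levels and changes of the barely read members are uncertain. Of 25 p53 targets and cell-cycle inhibitors 6 rose and 2 fell, 32% called, also below the 40.5% over all genes. Among the rises were Cdkn2b (log2 2.33, SE 0.27) and Cdkn2a (log2 1.90, SE 0.30). Of 34 interferon-induced genes 11 rose and 7 fell (52.9% called), with 10 of the rises at least 2-fold. Irgm1, an interferon-inducible GTPase, had 22.6, 24.2 and 11.1 CPM with shMed12, against 0.249, 0.511 and 0.197 CPM with shNMC (log2 5.87, SE 0.53, edgeR adjusted p = 1.1e-08), and Oasl2 had 9.42, 10.0 and 3.93 CPM with shMed12, against 0.291, 0.197 and 0.246 CPM with shNMC. Library 3 held less than the other shMed12 libraries in both, as it did for the Gbp genes, a family of close paralogs whose single levels are uncertain.

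The same hairpin was compared in libraries that the mESC comparison does not use, after RA. There 6814 genes were called (41.9%), 3463 higher (21.3%) and 3351 lower (20.6%). Of the 3352 genes higher in mESCs 2265 were higher after RA too (67.6%, and 65.4% of those higher after RA), and of the 3242 lower in mESCs 2075 were lower after RA (64.0%, and 61.9% of those lower after RA). Opposite calls numbered 34 in each direction. After RA 7.48% of genes were called at least 2-fold higher and 7.77% at least 2-fold lower. The Srf and Mrtf list counted 19 higher and 0 lower of 22 after RA, and the Hippo list 15 higher and 3 lower of 25. The matricellular list counted 19 higher and 3 lower in mESCs, and 13 higher and 9 lower after RA, and its median log2 change was 1.05 in mESCs and 0.05 after RA. Tagln rose by log2 7.02 in mESCs and 6.21 after RA, and Tpm1 by 2.94 and 2.84. Of the 36 genes compared singly between states, which are the module genes, the 10 largest rises and falls and the leading Srf and Hippo members, 9 differed between them by edgeR's test of the interaction, among 820 genes that did so in all. Most of the 36 were chosen for their change in mESCs, which favours a larger change there, and in all 9 the change was larger in mESCs.

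**Figure D5:**
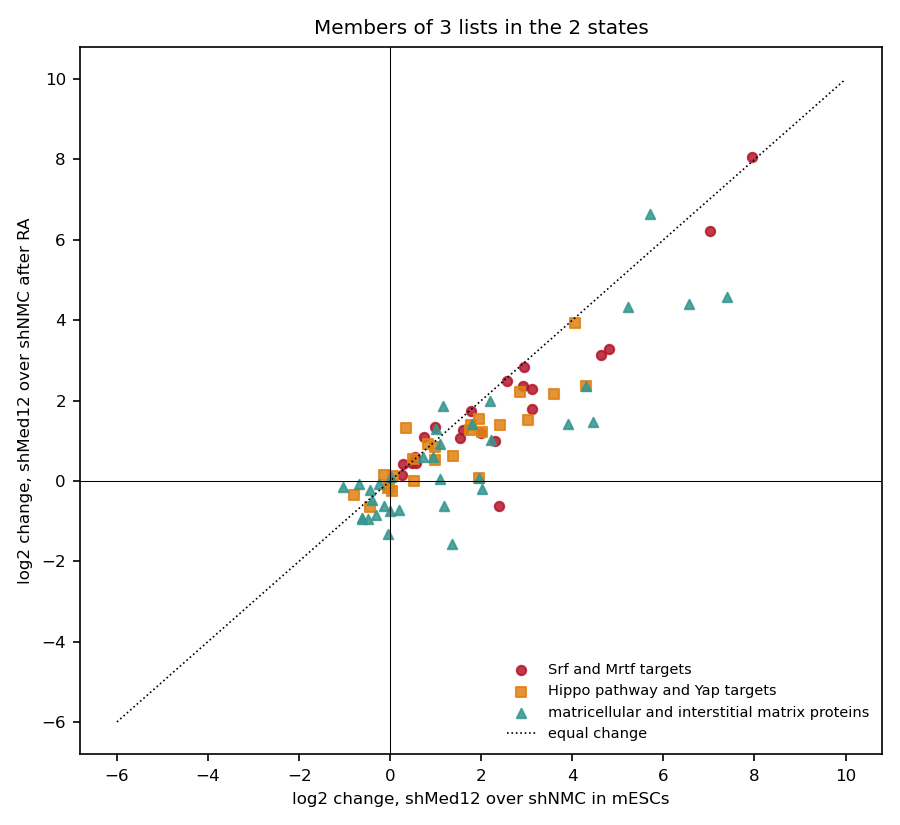
Log2 change of shMed12 over shNMC after RA (y axis) against the same in mESCs (x axis) for the tested members of 3 lists; the dotted line marks equal change. The 2 comparisons share no library, and most Srf and Hippo members lie on or below the line on the positive side of both axes, while matricellular genes spread to both sides of 0 after RA.

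Against the other kinase-module hairpin the shMed12 cells stood apart as well. Between shMed12 and shCdk8 mESCs 5833 genes were called (35.8%), 2994 higher (18.4%) and 2839 lower (17.4%) with shMed12, of which 1487 (9.13%) and 959 (5.89%) by at least 2-fold. Med12 was lower with shMed12 (log2 -1.48) and Cdk8 higher (log2 2.12), each group being low in its own target. The Srf and Mrtf list counted 20 higher and 0 lower of 22, and the Hippo list 18 higher and 3 lower of 25. Tpm1 differed by log2 2.56 and Lats2 by 2.69 (edgeR adjusted p = 1.4e-12 and 8.8e-07). Pluripotency markers counted 2 higher and 14 lower of 18. Oxidative phosphorylation genes counted 2 higher and 8 lower of 40. This comparison shares its shMed12 libraries with the one against shNMC, so the values are given side by side only.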

How the data were processed

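Strand-specific poly-A libraries of 50-base reads were made from E14TG2a mESCs, per the labels' protocols. The authors deposited raw read counts per gene symbol for each library; the submitters' processing notes name bcl2fastq 1.8.4, STAR 2.3.1z13, SAMtools 1.2, HTSeq 0.6.1p1, DESeq2 1.6.3 and the build mm9, without roles. Gene annotation and strand handling were not given in the sources used here. Entries that name no gene were left out of library sizes.

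The counts of all 24 libraries (8 groups of 3) were filtered with filterByExpr, scaled by TMM and fitted with 1 mean per group in edgeR 4.0.16 (R 4.3.3), using robust quasi-likelihood tests, two-sided, 16 residual degrees of freedom and Benjamini-Hochberg adjustment over 16280 genes. All groups enter so that they share 1 estimate of the spread. Each standard error is the absolute log2 change over the root of its F statistic. DESeq2 1.42.0, other scalings and filters, fewer libraries, a replicate term and each library left out in turn were alternatives. On simulated counts with 200 of 15953 genes changed between shMed12 and shNMC mESCs, 93.8%, 73.5%, 62.0% and 100% of those set to log2 changes of -2, -1, 1 and 2 were recovered, with 7 false calls.

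Members and lists were chosen with earlier results of these data known. Named genes are the kinase module, the pluripotency markers, the 10 largest rises and falls in log2 (at least 5 CPM as a group mean, groups apart) and in CPM, and up to 5 genes of lowest p per list; exceptions are said to be chosen after their values were seen. Gene models without a name and histone genes were not named. Intervals and floors (3 reads) cover counting error only. Same-numbered libraries deviated together between shMed12 and shCdk8 mESCs (r across genes 0.54, 0.44 and 0.62) and after RA (0.51, 0.11 and 0.55), while 1 of the 3 pairs did not in the comparison with shNMC in mESCs, and no label says what the numbers mark. Promoter sequences are from RefSeq on GRCm38.p6, not the build of the counts.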

Additional observations from a re-analysis of the deposited data

Results flagged for a closer look

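Of 36 genes whose change with shMed12 was compared between the 2 states, 9 had an adjusted p under 0.05 for the difference itself (edgeR's quasi-likelihood test of the interaction, Benjamini-Hochberg over all genes). Each value is the log2 change in mESCs minus that after RA. The caveolin gene Cav1 rose more in mESCs, by 5.03, as did the tenascin gene Tnc, by 2.81, the thrombospondin gene Thbs1, by 2.15, the myosin light chain gene Myl9, by 1.52, the Med12 paralog Med12l, by 1.22, the caldesmon gene Cald1, by 0.84, and Tead1, by 0.47. The neural transcription factor gene Sox1, at -2.13, and the retinoic acid target Stra8, at -1.52, fell more in mESCs. All 9 moved in the same direction in both states and further in mESCs. Most of the 36 genes were chosen for their change in mESCs, which by itself favours a larger change there.

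Reads with several alignments are used in no comparison. Their share was at least 47.4% of entries in every shMed12 mESC library and at most 47.2% in every shNMC mESC library, so the groups did not overlap. That difference was not tested.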

How the results depend on the processing

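The comparison of shMed12 with shNMC in mESCs called 5232 genes (without shMed12 replicate 1) to 8573 genes, against 6594. The highest count came with 18 libraries fitted, the mESC control and shRing1b libraries left out. Over the alternatives tried, 78.7% to 99.7% of the calls were kept. The comparison with shCdk8 ranged from 4534 to 7937 calls and that after RA from 5384 to 8991. The replicate number as a block gave 6375 calls in mESCs, 5714 against shCdk8 and 6623 after RA, and moved no count by more than 1.5 times. Against shNMC in mESCs the deviations of same-numbered libraries correlated at -0.02, 0.27 and 0.43. Numbers 2 and 3 correlated best with their own number and number 1 did not, a hint from the data and not from the design, so the numbers were not taken as pairs there. The share of calls that were higher was 50.8%, and 55.5% with scaling by total counts. Of 332 genes followed, 309 kept direction and side of the threshold throughout. Med13l, not past the threshold at -0.03, turned positive with total gene counts (0.0028) and ranged from -0.14 to 0.054 without single libraries. Medians of the NuRD, cholesterol, cyclin, ribosomal, fatty acid, methyltransferase, hypoxia, immunoglobulin-family, lysosome, DNA methylation and macrophage lists changed sign under some alternative, so no direction of the median is given for them and their counts of calls stand alone.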

Other observations

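Several lists not described above held changes in both directions. In the Notch list, with 8 higher and 6 lower of 25, the ligand gene Dll1 had 3.39, 3.31 and 3.50 CPM with shMed12, against 11.4, 9.68 and 12.1 CPM with shNMC (log2 -1.70, SE 0.33), and Lfng, a glycosyltransferase that modifies Notch, was 2.24-fold higher. Of 32 glutathione and oxidative stress genes 10 rose and 5 fell. The peroxiredoxin gene Prdx6 had 606, 566 and 592 CPM with shMed12, against 345, 377 and 344 CPM with shNMC (log2 0.73, SE 0.10, edgeR adjusted p = 3.0e-06). Gja1, which encodes the gap junction protein connexin 43, had 579, 602 and 510 CPM with shMed12, against 216, 273 and 203 CPM with shNMC. Xbp1, a transcription factor of the unfolded protein response, fell to 70.0, 71.9 and 71.5 CPM with shMed12, against 148, 147 and 147 CPM with shNMC (log2 -1.05, SE 0.10). The HIF family gene Epas1 was 3.24-fold lower.

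The AP-1 site TGANTCA, searched on both strands in the same RefSeq windows, stood in 9.26% of promoters of genes at least 2-fold higher, 7.68% of those of genes at least 2-fold lower and 5.13% of those of genes not past the threshold. The Stat3 site TTCNNNGAA stood in 6.30%, 7.68% and 6.70%. Both reverse complements match the same patterns. Shares are given with no test.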
